A study of Mus musculus with 13 samples.

Results

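The comparison set enterocytes, the absorptive lining cells of the intestine, from mice that lacked both casein kinase 1α (CKIα, written CKIalpha or CKI in the labels) and p53 against enterocytes from mice that lacked both CKIα and p21. It rested on 4 of the 13 arrays of the series, 2 titled CKIα KO/p53 KO and 2 titled CKIα KO/p21 KO, and the arrays were chosen by title. A further array titled CKIα KO/p53 KO (3) has the genotype CKI KO in its other labels. It entered no fit and no test, and some of its values are only described at the end. The 2 CKIα Het/p53 KO and 2 CKIα Het/p21 KO arrays, which carry the same p53 or p21 KO with a heterozygous CKIα KO, stand as a reference. The 2 CKIα Het and 2 CKIα KO arrays, with p53 and p21 intact as far as the labels say, entered the same fit. The CKIα deletion was restricted to the gut and all mice had the 129/SVJ genetic background. The labels do not give the promoter that drove the deletion, the tissues in which p53 and p21 were deleted, or the age and sex of the mice. Every group carried at least 1 deleted CKIα allele, so none is wild type. The labels call the 2 arrays of a group biological replicates. The comparison asks what differs, once CKIα is gone, between enterocytes that have p53 but no p21 and enterocytes that have no p53.

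CKIα phosphorylates β-catenin and so starts its destruction, which holds Wnt signalling in check, and it also restrains p53 through the p53 inhibitors Mdm2 and Mdm4. p53 is a transcription factor that stress activates. It switches on genes of cell cycle arrest, cell death and DNA repair as well as genes that shut p53 itself off again. p21, encoded by Cdkn1a, is the p53 target that inhibits cyclin-dependent kinases and halts the cell cycle.

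All values are log2 signals of the authors' normalized table, 1 probe set per gene, so a difference of 1 on this scale is 2-fold. Array medians lay between 4.96 and 5.12. No detection calls were used, and levels below those medians were taken as not separable from background, a limit set after the values were seen. Where both arrays of a group lay below it, the fold is given as a lower bound ("at least"), the mean of the brighter group against the medians of the dimmer group's arrays, while differences on the log2 scale are as fitted. Enterocyte markers were bright on the 4 arrays: villin (Vil1) lay between 11.66 and 12.27, the fatty acid binding protein Fabp2 between 12.22 and 12.89 and the cadherin Cdh17 between 12.10 and 12.22. The 2 CKIα KO/p21 KO arrays were the least alike pair in the fit, with 781 genes more than 2-fold apart and a correlation across genes of 0.971. The 2 CKIα KO/p53 KO arrays had 369 such genes and a correlation of 0.982. On the first principal component, which held 51.6% of the variance, CKIα KO/p21 KO replicate 1 scored 6.91 and replicate 2 scored 54.0, next to 44.7 and 53.5 for the CKIα KO/p53 KO arrays. Trp53 has no probe set of its own in the annotation used, and Cdkn1a shares its probe set with another symbol, so neither knockout could be checked on its own transcript. Csnk1a1, which encodes CKIα, lay between 10.44 and 10.80 on all 12 arrays of the fit, in the groups with and without the deletion alike, so its probe set checks no genotype.

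The double knockouts differed in a small set of genes, among them 10 listed targets of p53. Of 16721 genes tested, 55 (0.329%) differed at an adjusted p under 0.05 (limma, Benjamini-Hochberg over all genes), the threshold at which a gene counts as called: 36 (0.215%) were lower and 19 (0.114%) higher in CKIα KO/p53 KO. Both arrays of one group lay beyond both arrays of the other for all 55. Over all genes 16.5% showed this pattern lower and 18.4% higher in CKIα KO/p53 KO. The 55 were chosen for this same difference, so their separation is a description and no further support. The median difference over all genes was 0.01. The 36 lower genes had a median difference of -1.50 and ran from -0.92 to -3.85. The 19 higher genes had a median of 1.70 and ran from 1.07 to 3.01. In 12 of the lower and 10 of the higher genes the dimmer group lay below the array medians on both arrays. At an unadjusted p under 0.05, 1507 genes (9.01%) differed. The count depended on single arrays: it was 19 without CKIα KO/p53 KO replicate 2 and 221 without CKIα KO/p21 KO replicate 2. The arrays outside the comparison enter through the pooled spread, and the count was 30 without either CKIα Het/p53 KO or either CKIα Het/p21 KO array, and 36 without either CKIα Het array. With the spread taken from the 4 arrays alone 0 genes were called by limma, with 972 at an unadjusted p under 0.05. Ccng1, Cfi, Cyp1b1, Dglucy, Eda2r, Nr1h5, Psrc1 and Rab44 were called under every alternative except that last one, the other called genes lost their call under at least 1 more, and none of the 55 changed direction under any.

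The p53 targets made up the plainest group among the lower genes. The targets were listed with earlier results of these data known. Of 52 known targets listed, 46 were measured, and 10 were called lower and 0 higher in CKIα KO/p53 KO, against 0.215% and 0.114% of all genes. At an unadjusted p under 0.05, 25 were lower and 0 higher, against 3.97% and 5.05% of all genes. The median over the 46 was -0.77, against 0.01 over all genes. For 30 of them both CKIα KO/p53 KO arrays lay below both CKIα KO/p21 KO arrays, a pattern shown by 16.5% of all genes, and 2 showed the reverse, shown by 18.4% of all genes. In the Het reference the same 46 had a median of -0.0027, against 0.055 over all genes, with 0 called by limma. There 6 of the 46 passed an unadjusted p under 0.05 (limma), against 12.3% of all genes. Without overlap, 12 were lower and 8 higher in CKIα Het/p53 KO, against 18.1% and 29.2% of all genes. The target count was 5 without CKIα KO/p53 KO replicate 1, 3 without replicate 2 and 6 without either CKIα Het/p53 KO array.

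Among targets of cell death, 2 of 14 measured members were called lower, against 0.215% of all genes, and the median was -0.87. Differences lay below 0 for 13 of the 14, and 9 were lower at an unadjusted p under 0.05 (limma). Eda2r, is a receptor of the tumour necrosis factor receptor family. Its values were 6.62 and 7.55 in CKIα KO/p21 KO and 3.21 and 3.25 in CKIα KO/p53 KO. The groups lay far apart, and the CKIα KO/p53 KO values sat with the 4 reference arrays, which ran from 3.27 to 3.43. The difference was -3.85 ± 0.38 (SE), at least 4.30-fold, with an adjusted p of 0.00424. CKIα KO arrays with p53 and p21 intact lay between, at 4.87 and 6.11. Tnfrsf10b, a death receptor for the ligand TRAIL, measured 7.17 and 7.32 in CKIα KO/p21 KO against 6.15 and 5.98 in CKIα KO/p53 KO. It fell by 1.18 on the log2 scale, a 2.26-fold difference (SE 0.18, adjusted p 0.0307). Pidd1, which assembles a caspase-activating complex, differed by -1.24 and Dcxr, a dicarbonyl reductase, by -1.17, with adjusted p values of 0.0939 and 0.0922. Both kept their groups apart without passing the test. Pmaip1, the BH3-only protein Noxa, was picked out after its values were seen because it went the other way: 8.26 and 7.96 in CKIα KO/p21 KO against 8.37 and 8.61, a difference of 0.38 with an adjusted p of 0.616.

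Among targets of feedback and arrest, 5 of 16 measured members were called lower, against 0.215% of all genes, and the median was -0.66. Differences lay below 0 for 12 of the 16, and 8 were lower at an unadjusted p under 0.05 (limma). Ccng1, cyclin G1, which acts on Mdm2 through a phosphatase, was among the brightest of the called genes. It read 11.58 and 11.80 in CKIα KO/p21 KO and 9.06 and 8.91 in CKIα KO/p53 KO. The reference arrays ran from 9.06 to 9.66, close to the CKIα KO/p53 KO arrays and well below the CKIα KO/p21 KO arrays. The difference was -2.71 ± 0.23 (SE), 6.54-fold, with an adjusted p of 0.0016. Zmat3, an RNA-binding zinc finger protein, read 7.50 and 8.04 against 5.87 and 5.76, which is 3.88-fold lower in CKIα KO/p53 KO (adjusted p 0.0125). Sesn2, a sestrin that restrains mTORC1, read 7.38 and 7.13 against 5.60 and 5.30, 3.50-fold lower (adjusted p 0.0252). Against the Het arrays of all genotypes, the CKIα KO/p53 KO values lay just above their range for Zmat3 (5.40 to 5.65) and below it for Sesn2 (5.78 to 6.18).

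Mdm2, the ubiquitin ligase that degrades p53, read 9.55 and 9.35 in CKIα KO/p21 KO and 7.97 and 8.25 in CKIα KO/p53 KO. Here the CKIα KO/p53 KO arrays fell below every other array, since the 8 remaining arrays of the fit ran from 8.50 to 9.13. The difference was -1.34 ± 0.21 (SE), 2.53-fold, with an adjusted p of 0.0337. Gtse1, a microtubule-bound protein that moves p53 out of the nucleus, read 7.23 and 7.78 against 5.82 on both CKIα KO/p53 KO arrays, 3.22-fold lower (adjusted p 0.0465). Mdm4, the partner of Mdm2 in holding p53 down, was in no list and was picked out after its values were seen: it read 9.53 and 9.92 against 8.24 and 8.20, 2.84-fold lower (adjusted p 0.0232). Phlda3, an inhibitor of Akt that was also picked out afterwards, differed by -2.19 and missed the threshold (adjusted p 0.0675), with 7.08 and 8.15 in CKIα KO/p21 KO against 4.99 and 5.85.

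Among targets of metabolism, repair and other roles, 3 of 16 measured members were called lower, against 0.215% of all genes, and the median was -0.60. Differences lay below 0 for 14 of the 16, and 8 were lower at an unadjusted p under 0.05 (limma). Psrc1, a protein of the mitotic spindle, read 7.64 and 8.67 in CKIα KO/p21 KO against 5.06 and 4.95 in CKIα KO/p53 KO. The Het arrays of all genotypes ran from 4.87 to 5.25, so only the CKIα-deleted arrays that kept p53 stood above that level. The difference was -3.15 ± 0.32 (SE), 8.88-fold, with an adjusted p of 0.00424. Among its genes of DNA repair or nucleotide supply, Polk and Ercc5 were called lower. Xpc (0.19), Ddb2 (-0.05) and Rrm2b (-0.07) differed little and were not called (limma adjusted p 0.803, 0.968 and 0.937). Polk, a polymerase that copies past damaged bases, was 2.84-fold lower (adjusted p 0.0105), with 7.12 and 7.44 against 5.85 and 5.71. Ercc5, the XPG nuclease of nucleotide excision repair, was 2.36-fold lower (adjusted p 0.0208), with 7.93 and 8.03 against 6.58 and 6.90. Ephx1, an epoxide hydrolase, differed by -2.89 but its SE was 0.54 and its adjusted p 0.0789.

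**Figure D1:**
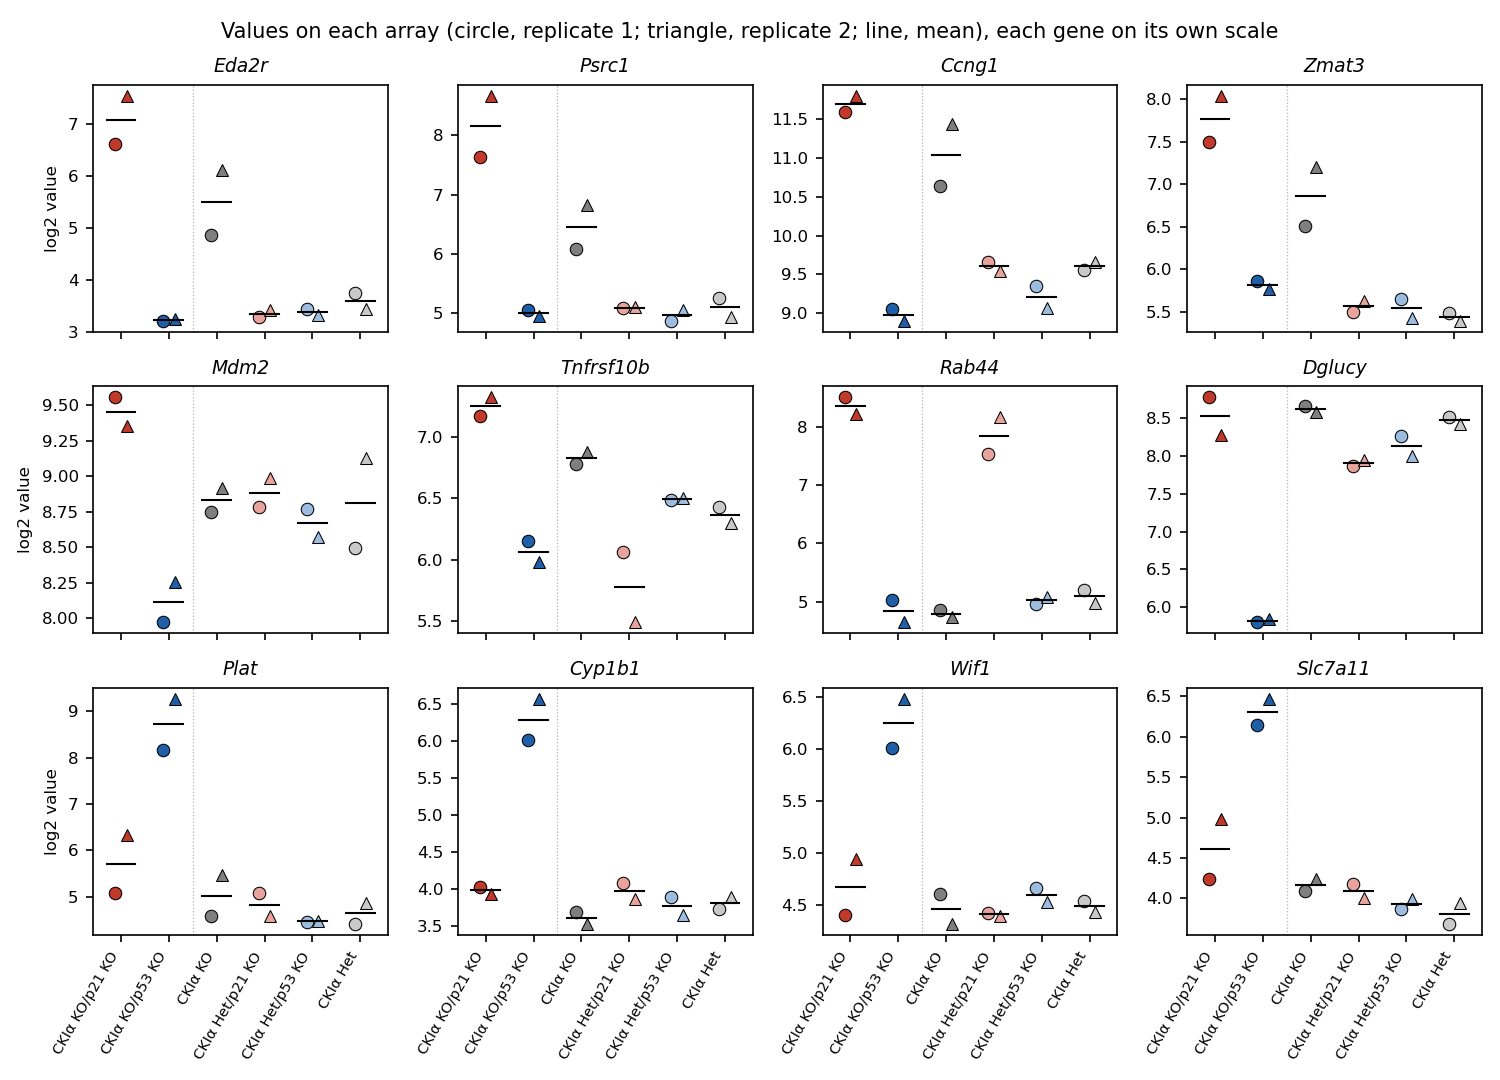
Log2 value (vertical axis) of 12 called genes on each of the 12 arrays in the fit, by genotype group (horizontal axis), with circles for replicate 1, triangles for replicate 2 and a line for the group mean. In the first 6 panels and in Dglucy the CKIα KO/p53 KO arrays lie below the CKIα KO/p21 KO arrays, Rab44 is high in both p21 KO groups, and the last 4 genes are high in CKIα KO/p53 KO alone among the groups drawn.

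Promoter sequence was set beside these targets because p53 binds DNA through pairs of a short element, the p53 decamer. RefSeq promoter windows of 300 bases (250 before and 50 after the gene start, build GRCm38.p6) were searched for the p53 decamer, whose pattern reads the same on both strands. Of all 32851 windows, 8.36% held one, and 1123 of 13169 tested genes with a window did so (8.53%). Among the genes called lower, 28 had a window and 9 of these held one, and among the genes called higher it was 2 of 16. Of the 10 called p53 targets, 8 had a window and 4 held one. Those 4 are shown 5′ to 3′ on the strand of the gene, with the decamer in capitals. In Ccng1 (chr11:40755452-40755481, minus strand) it begins 185 bases before the start, in Mdm2 (chr10:117710925-117710954, minus strand) 186 bases before, in Polk (chr13:96519399-96519428, minus strand) 231 bases before and in Gtse1 (chr15:85859945-85859974, plus strand) 9 bases after.
Ccng1: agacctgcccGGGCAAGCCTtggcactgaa
Mdm2: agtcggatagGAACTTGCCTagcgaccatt
Polk: catgtagcttGAACTAGCCTcaaacttatt
Gtse1: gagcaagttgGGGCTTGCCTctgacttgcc
Called genes outside the p53 lists that held one include Ddit4l (chr3:137623572-137623601, plus strand, 90 bases before), Inka2 (chr3:105705367-105705396, plus strand, 81 bases before) and Abcb1b (chr5:8797946-8797975, plus strand, 191 bases before).
Ddit4l: caactcccagGGGCTTGCCTgggcccctgc
Inka2: ctgtctgcccGGGCTTGTCTgccagcaggg
Abcb1b: gaacacgtaaAGACAAGTCTatgtaaatgt
These matches describe the letters of the windows and say nothing of binding in these cells.

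The other 26 lower genes lay outside the p53 lists. Ddit4l, an inhibitor of mTORC1, was at least 2.73-fold lower, with 6.20 and 6.65 in CKIα KO/p21 KO against 4.36 and 4.95 (adjusted p 0.0367). Abcb1b, a drug efflux pump, was at least 2.24-fold lower, with 6.31 and 5.98 against 4.16 and 4.24 (adjusted p 0.0125). Cfi, a protease that inactivates complement, was at least 4.22-fold lower, with 6.84 and 7.27 against 4.69 and 4.49 (adjusted p 0.00424). In all 3 the CKIα KO/p21 KO arrays were the highest of the 12. Ddias, named for suppressing apoptosis after DNA damage, was 4.51-fold lower (adjusted p 0.0232), and Pvt1, a noncoding RNA next to Myc, at least 3.23-fold lower (adjusted p 0.039). Mybl1, a transcription factor of the Myb family, was at least 1.56-fold lower (adjusted p 0.0252).

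Tert, the catalytic subunit of telomerase, read 6.67 and 6.40 in CKIα KO/p21 KO against 5.26 and 5.02, 2.63-fold lower (adjusted p 0.0208). Jag1, a ligand of Notch receptors, read 7.36 and 7.71 against 6.43 and 6.46, 2.13-fold lower (adjusted p 0.0212). Lif, a cytokine of the interleukin 6 family, read 5.73 and 5.72 against 4.77 and 4.68, at least 1.68-fold lower (adjusted p 0.0212). These 3 were the called lower members of the lists for crypt base markers, Notch signalling and secreted factors. That is 1 of 18, 1 of 16 and 1 of 25 measured, against 0.215% of all genes. The medians of these lists lay near 0, at 0.0019, -0.11 and 0.03. Another 4 were picked out after their values were seen: Mgmt, which removes alkyl groups from DNA, was at least 1.54-fold lower, Rnf169, which acts at DNA breaks, 2.71-fold, the exocyst subunit Exoc4 2.71-fold, and Ccp110, a cap protein of centrioles, 2.82-fold.

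Another kind of pattern appeared in a few lower genes that stood low in CKIα KO/p53 KO against every other group. Dglucy, a mitochondrial enzyme that converts D-glutamate, read 8.77 and 8.27 in CKIα KO/p21 KO and 5.81 and 5.85 in CKIα KO/p53 KO. Its other 8 arrays ran from 7.86 to 8.65, so the CKIα KO/p53 KO pair stood apart from all. The difference was -2.69 ± 0.17 (SE), 6.47-fold, with an adjusted p of 0.000254. Naip5, a sensor of bacterial flagellin with near-identical copies in the genome, read 9.38 and 9.44 against 7.86 and 7.71, and at least 9.12 on every other array (3.09-fold, adjusted p 0.0277). Its probe set may not separate it from those copies. Nfe2l2, which encodes the oxidative stress regulator Nrf2, and the glycerate kinase Glyctk were picked out after their values were seen and were likewise lowest in CKIα KO/p53 KO, 2.45-fold and 2.48-fold below CKIα KO/p21 KO (adjusted p 0.0465 and 0.0256).

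Rab44, a large Rab-family GTPase, followed the p21 knockout whatever the CKIα genotype. It read 8.51 and 8.23 in CKIα KO/p21 KO against 5.03 and 4.65 in CKIα KO/p53 KO, a difference of -3.53 ± 0.22 (SE), 11.5-fold, with an adjusted p of 0.000254. In the Het reference it read 7.53 and 8.17 in CKIα Het/p21 KO against 4.96 and 5.09, a difference of -2.83 with an adjusted p of 0.00338. The CKIα Het and CKIα KO arrays, with no p21 deletion, ran from 4.73 to 5.21. In RefSeq, Rab44 lies directly next to Cdkn1a, with 0 protein-coding genes between. Of 45 tested genes within 25 genes on either side of Cdkn1a, Rab44 was the only one called, in either contrast. Dnah8, an axonemal dynein with 18 genes between it and Cdkn1a that was picked out after its values were seen, differed by -1.93 and -2.06 in the 2 contrasts without passing the test (adjusted p 0.131 and 0.143). Of 45 tested genes around Trp53, 0 were called by limma, with 4 at an unadjusted p under 0.05. Nlrp1b, an inflammasome sensor with 88 genes between it and Trp53 that was also picked out afterwards, was low in both p53 KO groups, at 4.05 and 3.87 in CKIα KO/p53 KO and 3.88 and 4.21 in CKIα Het/p53 KO. It read 5.53 and 5.21 in CKIα KO/p21 KO (at least 1.31-fold, adjusted p 0.0366), but CKIα KO arrays were low too, at 4.09 and 3.82. Whether the nearness of these genes to the deleted loci has a part in their values was not tested.

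The 19 genes higher in CKIα KO/p53 KO were led by Plat. Plat, tissue-type plasminogen activator, read 5.09 and 6.33 in CKIα KO/p21 KO and 8.16 and 9.26 in CKIα KO/p53 KO. The groups did not overlap, and the 8 other arrays ran from 4.43 to 5.47, so CKIα KO/p53 KO stood above all of them. The difference was 3.01 ± 0.46 (SE), 8.03-fold, with an adjusted p of 0.0309. Spock2, a secreted proteoglycan, was 5.33-fold higher, with 5.23 and 5.80 against 7.34 and 8.52 (adjusted p 0.0226). Wif1, a secreted Wnt inhibitor, was at least 2.39-fold higher, with 4.40 and 4.94 against 6.01 and 6.48 (adjusted p 0.0208). Htra1, a secreted protease, was at least 1.23-fold higher, with 3.91 and 4.09 against 5.32 and 5.25 (adjusted p 0.0125). For each of these the CKIα KO/p53 KO arrays were the highest 2 of the 12.

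Cyp1b1, a cytochrome P450, read 4.02 and 3.93 in CKIα KO/p21 KO and 6.01 and 6.57 in CKIα KO/p53 KO. The other 8 arrays ran from 3.53 to 4.08. The difference was 2.31 ± 0.19 (SE), at least 2.46-fold, with an adjusted p of 0.00146. Slc38a4, an amino acid transporter, read 4.41 and 5.37 against 7.14 and 7.16, 4.78-fold higher (adjusted p 0.00861). Slc7a11, which imports cystine for glutathione synthesis, read 4.23 and 4.98 against 6.14 and 6.47, at least 2.49-fold higher (adjusted p 0.0208). It was the 1 called member among 18 antioxidant genes measured, whose median was -0.07, and 0.114% of all genes were called higher. Stra6, a receptor that takes up retinol, was 3.79-fold higher (adjusted p 0.0208) and Vldlr, a lipoprotein receptor, 3.47-fold higher (adjusted p 0.0245). Nr1h5, a nuclear receptor related to the bile acid receptor FXR, read 2.81 and 2.99 against 4.83 and 4.93 (difference 1.98, adjusted p 0.00146), and since all of these lie below the array medians no fold is given. Pnliprp1, a pancreatic lipase-related protein, was at least 2.51-fold higher (adjusted p 0.024), Ctse, the protease cathepsin E, 3.55-fold (adjusted p 0.0208), Acer2, a ceramidase, 2.38-fold (adjusted p 0.0294) and Hacd4, an enzyme of very long chain fatty acid synthesis, at least 1.02-fold (adjusted p 0.0465).

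Hal and Dhcr7 were higher with p53 deleted in the reference as well. Hal, which breaks down histidine, read 4.68 and 4.45 in CKIα KO/p21 KO against 6.19 and 6.0, at least 2.15-fold higher (adjusted p 0.0232). The Het difference was 1.08 (adjusted p 0.143), and CKIα Het and CKIα KO arrays ran from 5.47 to 6.17, so both p21 KO groups were low rather than the p53 KO groups high. Dhcr7, the last enzyme of cholesterol synthesis, read 7.77 and 7.94 against 8.90 and 8.97, 2.12-fold higher (adjusted p 0.0208), with a Het difference of 1.02 (adjusted p 0.0767).

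**Figure D2:**
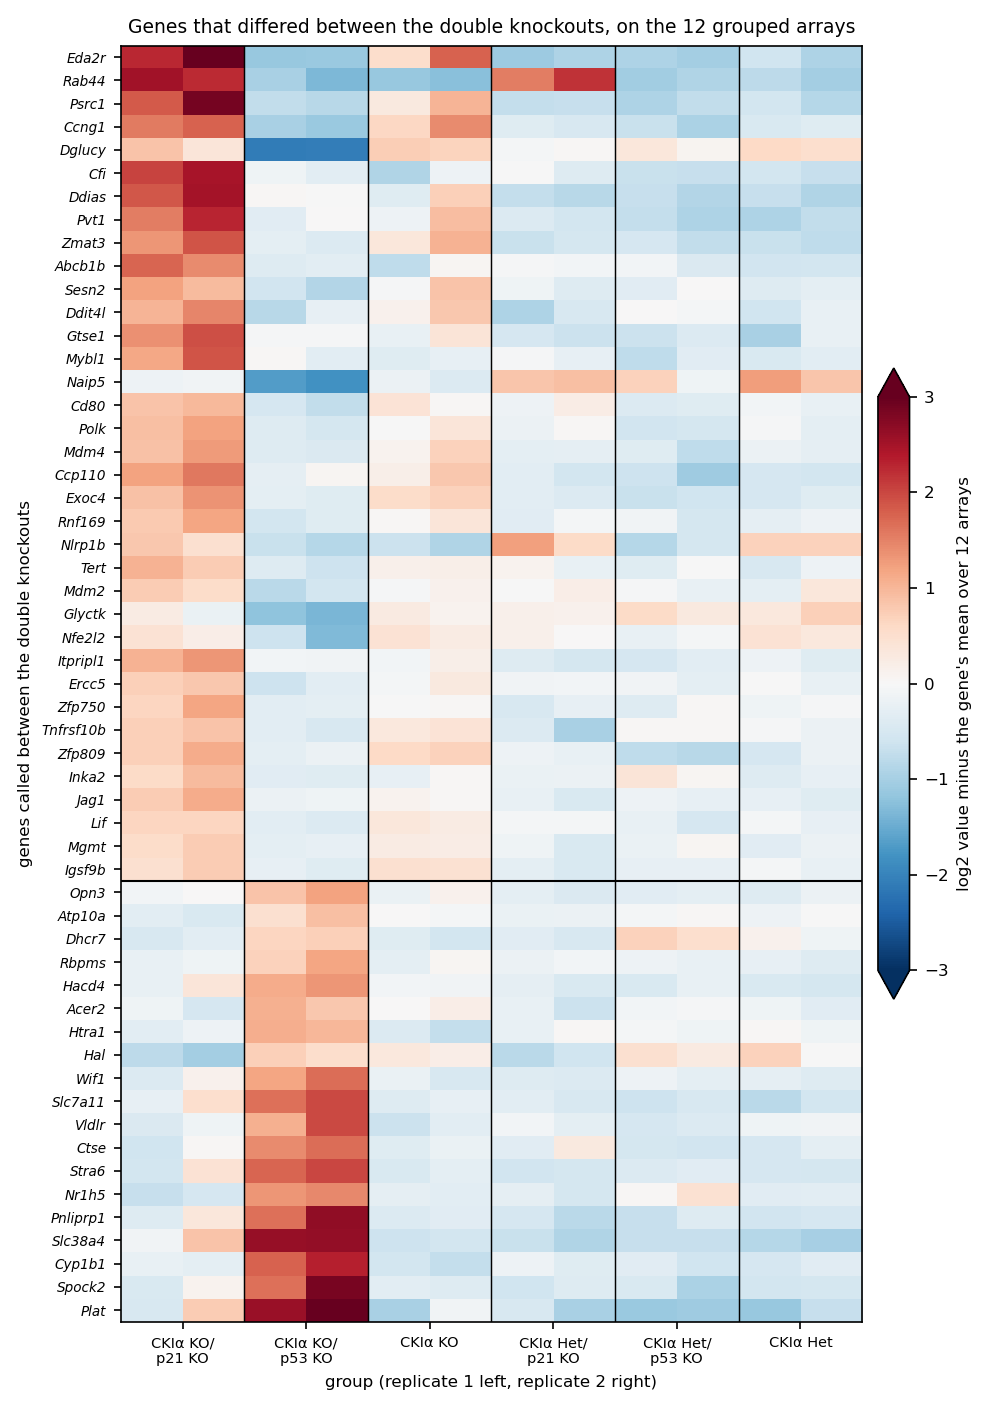
Log2 value minus the gene's mean over the 12 arrays (colour, capped at 3 in each direction) for the 55 called genes (rows, ordered by difference) on each array (columns, by group). The 36 genes above the black line are lower in CKIα KO/p53 KO than in CKIα KO/p21 KO and the 19 below it are higher, and the Het columns on the right show little of either pattern apart from single genes such as Rab44.

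Setting each double knockout against its own Het group showed on which side the called genes moved. For the 36 lower genes the median difference between CKIα KO and Het was 1.28 with p21 deleted and -0.10 with p53 deleted. In CKIα KO/p21 KO, 22 of the 36 lay more than 1 above CKIα Het/p21 KO, while 23 of the 36 in CKIα KO/p53 KO stayed within 0.5 of CKIα Het/p53 KO. Both CKIα KO/p21 KO arrays lay above both CKIα KO arrays for 33 of the 36, and both CKIα KO/p53 KO arrays lay below them for 27. For the 19 higher genes the medians were 0.12 with p21 deleted and 1.65 with p53 deleted, and 15 lay more than 1 above CKIα Het/p53 KO. Both CKIα KO/p53 KO arrays lay above both CKIα KO arrays for all 19. These counts describe genes chosen for the difference between the double knockouts, so a shift on one side or the other had to appear. The shares of all genes with these patterns were not counted, so the counts are a description only.

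The same p53-against-p21 contrast with CKIα heterozygous called 5 genes (0.0299%) of the 16721 by limma, 3 higher (0.0179%) and 2 lower (0.012%), with 2065 (12.3%) at an unadjusted p under 0.05. It was 26 without either CKIα KO/p21 KO array, 8 and 1 without CKIα Het/p21 KO replicates 1 and 2, 3 without either CKIα Het array and 0 without CKIα Het/p53 KO replicate 1. Rab44 was the only gene among the 5 that was also called with CKIα deleted. The median Het difference was -0.13 over the 36 lower genes and 0.04 over the 19 higher genes. For 17 of the 36 and 7 of the 19 both Het arrays kept the direction without overlap, against 18.1% of all genes lower and 29.2% higher in CKIα Het/p53 KO. The difference between the 2 contrasts was itself tested, and 2 genes (0.012%) passed, 1 in each direction (0.00598% each): Cyp1b1, by 2.52 ± 0.27 (SE, adjusted p 0.0291), and Dglucy, by -2.92 ± 0.24 (SE, adjusted p 0.00617). At an unadjusted p under 0.05, 1457 genes (8.71%) differed between the contrasts. Eda2r and Tnfrsf10b came next among the p53 targets, at -3.88 and -1.89, each with an adjusted p of 0.0991, so for the p53 targets a dependence on the CKIα genotype was not shown gene by gene. The count of 2 rested on single arrays: it was 0 without CKIα Het/p21 KO replicate 2 or CKIα Het/p53 KO replicate 1, 1 without either CKIα Het array, 4 without either CKIα KO array, 6 and 15 without CKIα KO/p53 KO replicates 2 and 1, and 128 without CKIα KO/p21 KO replicate 2.

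**Figure D3:**
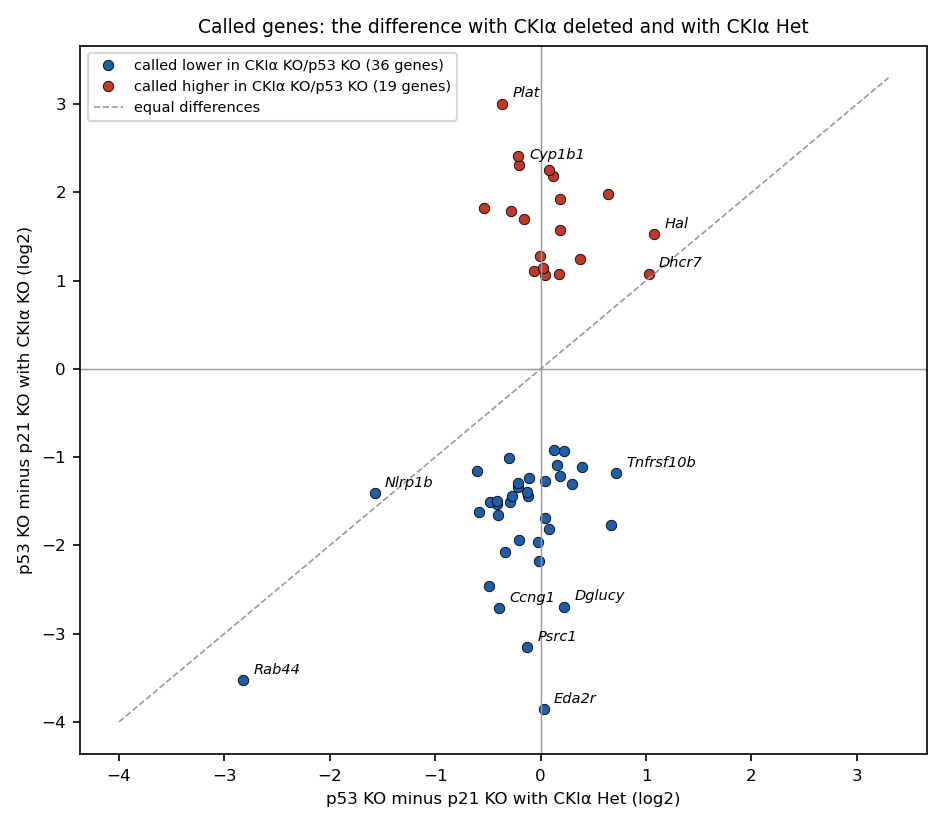
Difference p53 KO minus p21 KO with CKIα deleted (vertical axis, log2) against the same difference with CKIα heterozygous (horizontal axis, log2) for the 55 called genes. Most points lie near 0 on the horizontal axis, and Rab44, Nlrp1b, Hal and Dhcr7 lie near or toward the dashed line of equal differences.

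Wnt feedback inhibitors, which β-catenin switches on and which damp Wnt signalling, leaned higher in CKIα KO/p53 KO as a list, although a single member passed the test. The list was chosen with earlier results of these data known, so its direction is no independent evidence. All 11 measured members had differences above 0, and the median was 1.18 (0.12 in the Het reference, 0.01 over all genes). For 8 of the 11 both CKIα KO/p53 KO arrays lay above both CKIα KO/p21 KO arrays, a pattern shown by 18.4% of all genes. Wif1 was the 1 called, and 0.114% of all genes were called higher. Dkk3 differed by 1.18 (adjusted p 0.0716) and Dkk2, a secreted antagonist of the Wnt coreceptor, by 1.54 (adjusted p 0.0922). Nkd1, an intracellular inhibitor of Wnt signalling, read 5.80 and 7.48 against 8.37 and 8.77 (adjusted p 0.133), with the Het arrays of all genotypes between 5.11 and 5.57. Axin2, the usual readout of β-catenin activity, was picked out after its values were seen: it read 8.75 and 9.35 in CKIα KO/p21 KO against 9.20 and 9.23, which overlap, while Het arrays ran from 6.73 to 7.22. The list's median was 0.95 without CKIα KO/p21 KO replicate 1 and 0.55 without CKIα KO/p53 KO replicate 2, and Wif1 missed the threshold in both. It was 1.41 without CKIα KO/p21 KO replicate 2 and 1.46 without CKIα KO/p53 KO replicate 1, with 4 and 3 members called.

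Other targets of Wnt and β-catenin had a lower median. Of 19 measured, 0 were called higher (4 at an unadjusted p under 0.05, against 5.05% of all genes). Jag1 was the 1 called lower, against 0.215% of all genes, and the median was 0.20. Without CKIα KO/p21 KO replicate 1 the median was -0.12, and without replicate 2 it was 0.63 with 3 called higher. Jag1 missed the threshold without either CKIα KO/p53 KO array. Lgr5, the marker of crypt base stem cells, read 4.39 and 5.0 in CKIα KO/p21 KO against 6.65 and 5.90, a difference of 1.58 with an adjusted p of 0.0924. Among the Prox1, Plat and Ifitm genes, chosen in view of the invasion that the series title names, Plat was the 1 called of 8 measured. Over all genes, 0.114% were called higher. All 8 had differences above 0 and their median was 1.03. Of the 8, 5 were higher at an unadjusted p under 0.05, against 5.05% of all genes. For 6 of them both CKIα KO/p53 KO arrays lay above both CKIα KO/p21 KO arrays, against 18.4% of all genes. The list was chosen with results of these samples known, so its direction is no independent evidence. Prox1, a transcription factor, read 5.83 and 7.77 against 7.76 and 8.49, which overlap. Ifitm1 and Ifitm2, interferon-induced membrane proteins, differed by 1.82 and 1.02 (adjusted p 0.145 and 0.257). Without CKIα KO/p21 KO replicate 1 the median was 0.36 and Plat missed the threshold, as it did without CKIα KO/p53 KO replicate 2, and without CKIα KO/p21 KO replicate 2 the median was 1.46 with 2 called. The wider list of invasion and mesenchymal genes had Plat as its 1 call among 21. At an unadjusted p under 0.05, 5 of its members were higher and 2 lower, against 5.05% and 3.97% of all genes. Its median was 0.06, and -0.02 without CKIα KO/p21 KO replicate 2. Its members included Vim, the intermediate filament of mesenchymal cells, at 1.32 and the membrane protease Mmp14 at 1.06, neither past the test (adjusted p 0.379 and 0.432).

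Cell cycle genes gave no call between the double knockouts. None of 29 measured genes of DNA replication and S phase and none of 27 of mitosis and spindle was called by limma, with 1 and 0 at an unadjusted p under 0.05. Their medians were -0.0039 and 0.13. The direction rested on which CKIα KO/p21 KO array was kept: without replicate 1 the medians were -0.49 and -0.43, and without replicate 2 they were 0.43 and 0.65. Tyms, which makes thymidylate, read 7.52 and 7.93 in CKIα KO/p21 KO against 7.31 and 7.0. Plk1, the mitotic kinase, read 8.08 and 8.79 against 8.93 and 8.82. Of 17 CDK inhibitors and G1 regulators 0 were called, with 3 higher and 1 lower at an unadjusted p under 0.05 (5.05% and 3.97% of all genes). Cdkn1c, the CDK inhibitor p57, differed by 0.86 and the retinoblastoma gene Rb1 by -0.94 (adjusted p 0.0939 and 0.159). Of 21 genes of DNA damage checkpoints and repair 0 were called, with 1 at an unadjusted p under 0.05, and their median was -0.08 (-0.39 and 0.31 without CKIα KO/p21 KO replicates 1 and 2). Msh6, of mismatch repair, differed by -0.47 (adjusted p 0.546).

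Genes of cholesterol and fatty acid synthesis leaned higher in CKIα KO/p53 KO. The list was chosen with earlier results of these data known, so its direction is no independent evidence. Of 20 measured, 19 had differences above 0 and the median was 0.49. Dhcr7 was the 1 called, against 0.114% of all genes called higher. At an unadjusted p under 0.05, 7 were higher and 0 lower, against 5.05% and 3.97% of all genes. For 8 both CKIα KO/p53 KO arrays lay above both CKIα KO/p21 KO arrays, against 18.4% of all genes. Insig1, a sterol sensor that retains the pathway's activator, read 9.67 and 9.72 against 10.51 and 10.91 (difference 1.01, adjusted p 0.0922). Lss and Hmgcs1, enzymes of the pathway, differed by 0.76 and 0.60 (adjusted p 0.355 and 0.334). The median was 0.15 without CKIα KO/p21 KO replicate 1 and 0.89 without replicate 2, and Dhcr7 missed the threshold without CKIα KO/p21 KO replicate 1 or either CKIα KO/p53 KO array. Among 26 genes of lipid and bile acid handling 0 were called by limma, and the median was -0.17. At an unadjusted p under 0.05, 3 were higher and 4 lower, against 5.05% and 3.97% of all genes. Without CKIα KO/p21 KO replicate 1 the median was 0.15, and without replicate 2 it was -0.45 with 5 called lower. Pnliprp2, a lipase, differed by 2.26 and came closest (adjusted p 0.0531), with 7.59 and 7.23 against 9.79 and 9.55.

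Genes of absorption differed widely between the 2 CKIα KO/p21 KO arrays. Of 27 enterocyte markers 0 were called by limma, with 0 higher and 5 lower at an unadjusted p under 0.05 and a median of -0.37. Of 22 transporters of vitamins, sugars and amino acids 0 were called, with 2 higher and 6 lower at an unadjusted p under 0.05 and a median of -0.46. Over all genes 5.05% were higher and 3.97% lower at that threshold. Cubn, the vitamin B12 receptor cubilin, read 11.04 and 8.41 in CKIα KO/p21 KO against 7.98 and 7.16. Ace, the brush border peptidase, read 11.34 and 9.09 against 8.36 and 7.88, and the sugar carrier Slc5a4b 10.19 and 7.76 against 6.68 and 6.56. In each the higher of the CKIα KO/p21 KO values was replicate 1. Amn, the partner of cubilin, differed by -1.21 (adjusted p 0.131), Slc5a11 by -1.90 (adjusted p 0.278) and Enpp7, a sphingomyelinase of the brush border, by -2.78 (adjusted p 0.372). The mean level of the enterocyte markers was 11.69 and 10.57 on the CKIα KO/p21 KO arrays and 10.77 and 10.45 on the CKIα KO/p53 KO arrays. Without CKIα KO/p21 KO replicate 1 the marker median was 0.04 and the transporter median 0.23, and without replicate 2 they were -0.68 and -0.86, with 7 and 6 members called lower. Over all 38 gene lists, 27 medians changed sign when 1 of the 4 arrays was left out. In these bulk samples fewer cells of a type and less RNA per cell cannot be told apart.

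**Figure D4:**
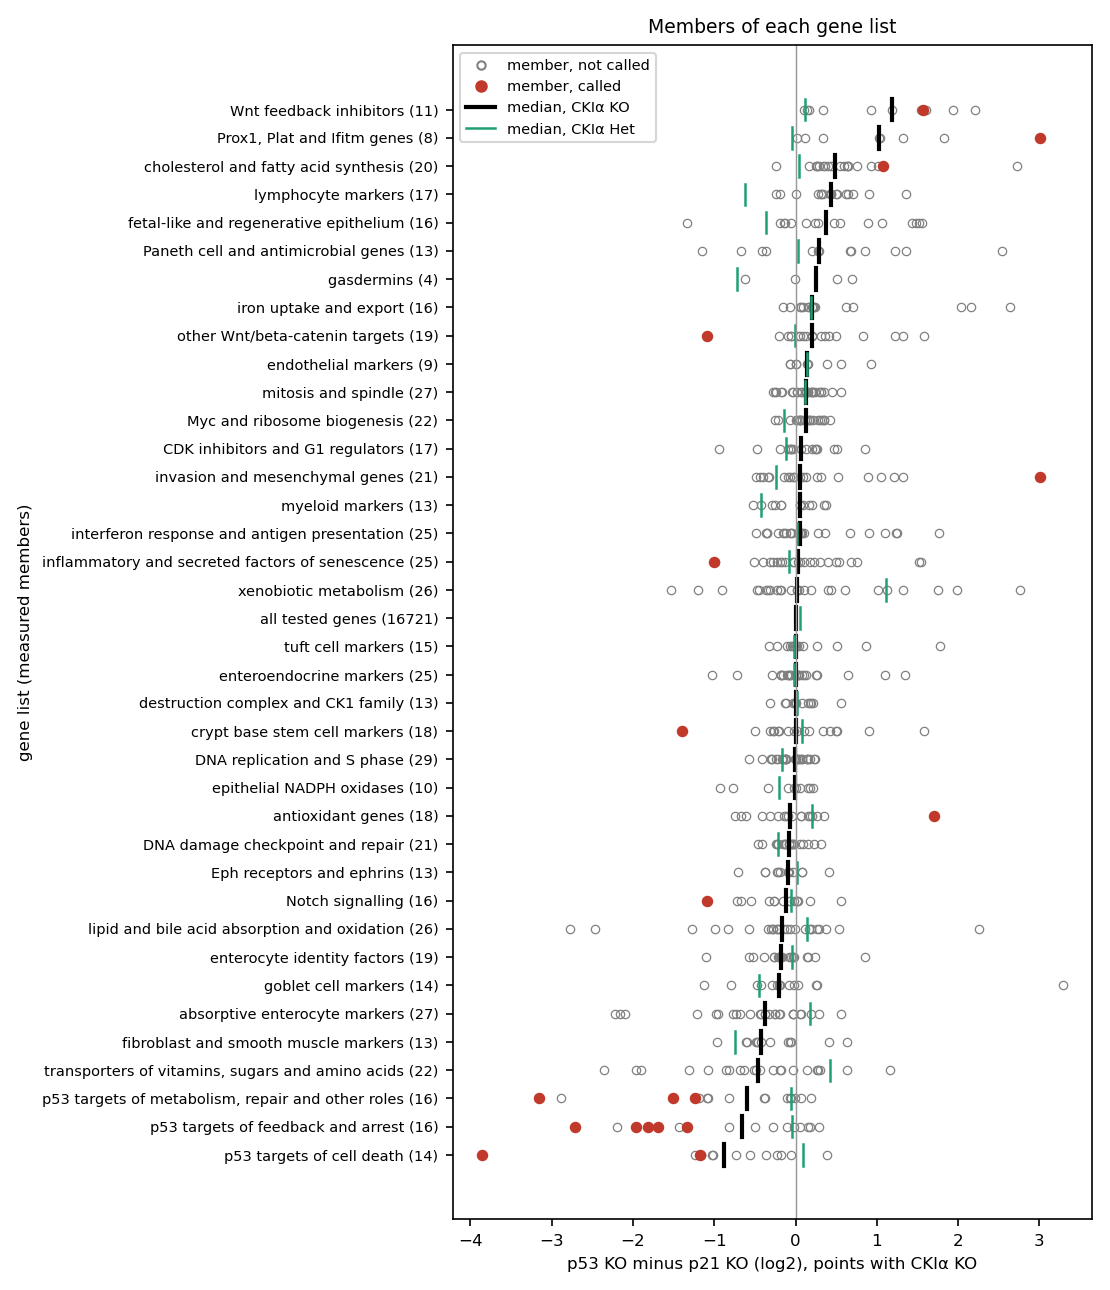
Difference CKIα KO/p53 KO minus CKIα KO/p21 KO (horizontal axis, log2) of each measured member of each gene list (rows, with the number measured), open for members not called and red for called, with the list median in black and the median of the Het contrast in green. The 3 p53 lists have the lowest medians, from -0.87 to -0.60, the Wnt feedback list has the highest, 1.18, and all tested genes have a median of 0.01.

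Iron genes varied widely between replicates. Of 16 measured 0 were called, and the median was 0.21. At an unadjusted p under 0.05, 3 were higher and 0 lower, against 5.05% and 3.97% of all genes. Slc11a2, which imports iron, read 8.73 and 7.83 in CKIα KO/p21 KO against 12.18 and 9.65, and the exporter Slc40a1 8.61 and 9.83 against 11.58 and 10.95. Cybrd1, which reduces iron for import, read 9.94 and 10.25 against 12.60 and 11.90. None of the 3 overlapped between the groups, and their adjusted p values ran from 0.246 to 0.581. Cybrd1 and Slc40a1 were far lower on all Het arrays, at most 6.55 and 6.83. Duox2, an epithelial NADPH oxidase, differed by -0.77 (adjusted p 0.526) within a list of 10 with 0 called and 1 at an unadjusted p under 0.05.

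Markers of other cell types did not pass the test. Of 14 goblet, 25 enteroendocrine, 15 tuft and 13 Paneth cell genes 0 were called by limma, with 3, 3, 1 and 4 at an unadjusted p under 0.05. Of these, 1, 2, 1 and 3 were higher in CKIα KO/p53 KO. Over all genes 9.01% passed that threshold. Retnlb, a goblet cell lectin, read 3.98 and 3.45 in CKIα KO/p21 KO against 6.98 and 7.03, with a Het difference of 3.16 beside 3.29 here (adjusted p 0.203 and 0.195). Avil, a tuft cell actin-binding protein, differed by 1.77 (adjusted p 0.147). Of 17 lymphocyte, 13 myeloid, 13 fibroblast and 9 endothelial markers 0 were called, with 2, 0, 0 and 2 at an unadjusted p under 0.05, all higher in CKIα KO/p53 KO. The mean lymphocyte marker level was 6.48 and 5.63 on the CKIα KO/p21 KO arrays and 7.0 and 5.97 on the CKIα KO/p53 KO arrays, higher in replicate 1 of each. The lymphocyte median was 0.44, with 15 of 17 above 0, and it was -0.14 without CKIα KO/p53 KO replicate 1. For fibroblast and smooth muscle markers the mean level was 5.77 and 4.99 against 5.07 and 5.15. Their median was -0.43, with 11 of 13 below 0. For 8 of the 13 both CKIα KO/p53 KO arrays lay below both CKIα KO/p21 KO arrays, against 16.5% of all genes. The part of these cell types in the called differences was not tested.

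Genes of the interferon response and of senescent secretion went both ways. Of 25 interferon and antigen presentation genes 0 were called by limma, with 3 higher and 0 lower at an unadjusted p under 0.05 (5.05% and 3.97% of all genes). Their median was 0.05 (-0.11 without CKIα KO/p21 KO replicate 2). Ifit2, an antiviral protein, read 5.02 and 5.34 in CKIα KO/p21 KO against 7.22 and 6.67 (adjusted p 0.257). Of 25 inflammatory and secreted factors, Lif was the 1 called lower, against 0.215% of all genes. At an unadjusted p under 0.05, 3 were higher and 2 lower, and the median was 0.03. In 14 of the 25 the groups did not overlap, 7 in each direction, against 18.4% of all genes higher and 16.5% lower. Ccl20, a chemokine of the epithelium, differed by 1.54 (adjusted p 0.19). Among 26 genes of xenobiotic metabolism 0 were called, and the median was 0.02 beside 1.12 in the Het reference. At an unadjusted p under 0.05, 1 was higher and 3 lower, against 5.05% and 3.97% of all genes. The CKIα KO/p21 KO arrays lay apart, with mean levels of 9.83 and 8.04 against 9.22 and 9.08 in CKIα KO/p53 KO. Without CKIα KO/p21 KO replicate 1 the median was 0.58 with 4 called higher, and without replicate 2 it was -0.64 with 1 called lower. Aldh1a1, which oxidizes retinal, read 10.41 and 10.02 against 8.88 and 8.50 (adjusted p 0.24).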

How the data were processed

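Total RNA of mouse enterocytes was hybridised to Affymetrix arrays. The authors' deposited table holds log2 values per probe set, made with RMA in Affymetrix Expression Console 1.1 and then normalized on the median, per the labels' protocols; the log base was read from the values. The genome build is not given in the sources used here. Of 35556 probe sets, 21789 carry 1 gene symbol in GEO's platform annotation, 1621 several and 12146 none. For the 999 of 19938 genes with more than 1 probe set, the one with the highest mean was used. Genes were kept when at least 2 arrays exceeded the 25th percentile of their array, which left 16721. limma 3.58.1 (R 4.3.3) was fitted to 12 arrays with 1 coefficient for each of 6 groups (6 residual degrees of freedom, 9.8 with the prior), with Benjamini-Hochberg adjustment over all genes. No depth exists for arrays; their number, 2 a group, limits the precision. The labels call the arrays of a group biological replicates without saying that they are separate mice, so p-values measure the spread between these arrays. On simulated data (200 of 16721 genes changed, 10 runs) the test recovered 72.3% of genes changed by 1, 99% by 2 and 100% by 3, with 4.69% of calls false. The simulated noise was independent, with 1 spread per gene shared by all groups, as the fit assumes. The real spread between replicates was unequal, 0.341 in CKIα KO/p21 KO against 0.204 in CKIα Het. The simulated rates therefore need not hold for these arrays.

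The members and the 38 gene lists were chosen with earlier results of these data known. Named genes were the 15 largest called differences in each direction (passing over predicted, olfactory, vomeronasal and immune receptor symbols), the 4 best-ranked genes by p in a list, every called p53 target, and Csnk1a1, Trp53 and Cdkn1a where measured. Alternatives were no filter, quantile normalization, an intensity trend, a replicate block, the mean of probe sets, the 4 arrays alone and leaving out each array. Promoter windows come from RefSeq (GRCm38.p6). Tested genes matched RefSeq by Entrez number for 16665.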

Additional observations from a re-analysis of the deposited data

Results flagged for a closer look

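Cyp1b1 and Dglucy were picked up because their p53-against-p21 difference itself differed between CKIα KO and CKIα Het. For Cyp1b1 the difference of differences was 2.52 (adjusted p 0.0291, limma), with both CKIα KO/p53 KO arrays above the other 10. For Dglucy it was -2.92 (adjusted p 0.00617), with both CKIα KO/p53 KO arrays below the other 10.

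Signal outside the genes with a single symbol was found in 7 probe sets, 3 higher and 4 lower in CKIα KO/p53 KO, when 28593 probe sets were tested one by one. That is 0.0673% of the 10408 tested without a single symbol, against 24 (0.0839%) of all 28593, and 17 with a single symbol passed in this fit, fewer than the 55 genes of the fit over genes. Of the 7, 2 carry several symbols and 5 carry none, so they are not named.

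The array in no group, titled CKIα KO/p53 KO (3) with the genotype CKI KO, read above all 4 CKIα Het/p53 KO and CKIα Het/p21 KO arrays for 29 of the 36 genes called lower. The share of all genes with this pattern was not counted. The 36 were chosen for the difference between the double knockouts, so the count is a description only.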

How the results depend on the processing

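For the double knockouts the count of 55 kept within 1.5 times under no filter (52), quantile normalization (44), an intensity trend (61) and the mean of probe sets (55). It was 0 with the 4 arrays alone, a fit with fewer samples, where the p53 target count was 0 as well, and from 19 to 221 when 1 array was left out. The p53 target count of 10 ran from 3 to 13 in the same way, the Het count of 5 from 0 to 26, and the count of 2 for the difference between contrasts from 0 to 128. Axin2 ran from -0.13 to 0.47 with 1 array left out, the low end without CKIα KO/p21 KO replicate 1. Csnk1a1 was 0.0084 under quantile normalization and ran from -0.11 to 0.10 with 1 array left out. The cause was not tested. Of the 45 genes named without a call, 24 were called under at least 1 setting and 2 changed direction.

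The replicate numbers are not said to pair the arrays. Deviations from the group means correlated at 0.248 between the double knockouts and from -0.162 to 0.248 over the 15 pairs of groups, with 5 above 0.1. These values cannot settle whether the arrays are paired. With the replicate number as a block, 68 genes were called between the double knockouts (53 of the 55 among them), 11 p53 targets, 2 genes in the Het contrast and 4 for the difference. Xist read 3.15 to 3.94 on all replicate 1 arrays and 8.91 to 10.1 on all replicate 2 arrays, so the number is shared with a split in Xist that runs through all 6 groups, and the block takes it up. The main fit has no term for this split, and leaving out 1 array makes it uneven between the groups.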

Other observations

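The array in no group gave these values for genes the comparison called. Eda2r read 6.07 and Ccng1 11.22, both inside the range spanned by the CKIα KO and CKIα KO/p21 KO arrays. Rab44 read 5.23, as low as the arrays without a p21 deletion. Plat read 5.93, Cyp1b1 3.81 and Wif1 4.49. Its value was nearer to the CKIα KO/p53 KO mean than to the CKIα KO/p21 KO mean for 10 of the 36 lower genes and 1 of the 19 higher genes. The share over all genes was not counted, and the genotype of this array was not tested.

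The Het contrast called genes besides Rab44 that the double knockouts did not. Ocm, the calcium-binding protein oncomodulin, was higher by 2.92 in CKIα Het/p53 KO (adjusted p 0.0176) and by 0.38 in CKIα KO/p53 KO (adjusted p 0.806). Otop3, a proton channel, was higher by 1.94 (adjusted p 0.0097) beside 0.01 (adjusted p 0.995). Mettl7a1 was higher by 1.55 (adjusted p 0.0428) and Ccn1, a secreted matrix protein, lower by 1.46 (adjusted p 0.0483). The difference between the 2 contrasts did not pass the test for any of these 4 (adjusted p from 0.0991 to 0.438).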
